A study of Mus musculus with 6 samples.

Results

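The histone genes seen in poly(A) RNA are 86 of the 30281 gene symbols in the table. They were taken as every symbol that begins with Hist1h, Hist2h, Hist3h or Hist4h (69 clustered genes) or with H2af, H3f3 or H1f (17 replacement genes), and 4 symbols that end in -ps were left out. Their 118 transcripts were described in 6 mouse libraries with 1 library per condition. A pair of libraries came from mouse embryo fibroblasts (MEFs), which are Tsc2+/+ p53-/- in one and Tsc2-/- p53-/- in the other, both with no drug. The other 4 came from MKOC and TJ cells, 2 kidney epithelial lines labelled Tsc2-null, of which TJ is labelled as tumor-derived, from a secondary tumor in C57BL6 mice. Each of these lines was left untreated or given 100 nM rapamycin, an inhibitor of the kinase complex mTORC1. The labels describe a culture of 18 hours without serum, in DMEM with 0.1% BSA, for all samples. Tsc2 encodes tuberin, whose complex with the TSC1 protein restrains mTORC1. The MEFs and the kidney cells are cultured lines, so a difference between them is a difference between lines, and the genotype of a MEF library and its line cannot be told apart. Whether MKOC is 1 clone is not given in the sources used here.

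Histones are the proteins that DNA is wound around. H2A, H2B, H3 and H4 form the core of the nucleosome, and H1 binds the DNA between cores. Most of their genes lie in clusters, have no introns and are expressed in S phase, when new chromatin is built. The mRNAs of these genes usually end just after a stem-loop in place of a poly(A) tail, and that stem-loop is bound by SLBP, the stem-loop binding protein. Replacement histones, such as H3.3, H2A.Z, macroH2A and H1.0, are made throughout the cell cycle from mRNAs with poly(A) tails. The libraries were made with a kit that selects poly(A) RNA, so they hold clustered histone mRNA mainly where it has such a tail.

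In GENCODE M21 (GRCm38) the genes named Hist1, Hist2, Hist3 and Hist4 lie on chromosomes 13, 3, 11 and 6. The sequences that bear on what the libraries caught are the stem-loops in the 3′ UTRs. They were searched in the transcript sequences as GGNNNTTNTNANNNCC on the transcript strand, in each transcript whose deposited length equals its length in M21. Of 52 clustered transcripts read in this way, 27 held the motif, all in the 3′ UTR, and 1 of 38 replacement transcripts did, that of H2afx. Over all 76487 transcripts of equal length in the table, 2.97% held it and 0.173% held it within 100 bases of the 3′ end. The stem-loops of 3 abundant clustered genes and of H2afx are shown because the listed transcript goes on far past them. Capitals mark the motif.
Hist1h1c: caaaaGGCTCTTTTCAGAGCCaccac
Hist3h2a: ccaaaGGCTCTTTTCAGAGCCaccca
Hist1h4i: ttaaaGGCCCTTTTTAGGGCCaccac
H2afx: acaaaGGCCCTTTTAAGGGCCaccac
The motif of Hist1h1c (linker histone H1.2) lies at chr13:23739512-23739527 on the plus strand, 840 bases before the end of a transcript of 1560 bases. That of Hist3h2a (an H2A gene) lies at chr11:58955172-58955187 on the plus strand, with 1643 bases after it. That of Hist1h4i (an H4 gene) lies at chr13:22040966-22040981 on the minus strand, with 330 bases after it. The H2afx motif (H2A.X, the variant phosphorylated at DNA breaks) lies at chr9:44335240-44335255 on the plus strand, with 822 bases after it. Each lies in the single exon of its gene.

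The stem-loops of 2 genes whose listed transcripts stop soon after the motif are shown for contrast.
Hist1h3a: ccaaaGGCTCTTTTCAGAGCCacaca
Hist1h4f: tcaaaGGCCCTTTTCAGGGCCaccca
The motif of Hist1h3a, an H3 gene, lies at chr13:23761890-23761905 on the minus strand, 37 bases before the end. That of Hist1h4f, an H4 gene, lies at chr13:23551291-23551306 on the minus strand, 33 bases before the end. A poly(A) signal (AATAAA or ATTAAA in the last 50 bases) was present in 8 of 10 clustered transcripts that run over 100 bases past the motif, in 0 of 17 that end within 100 bases of it and in 5 of 25 without the motif, against 35.9% of all transcripts of equal length. The ends of 3 abundant clustered transcripts are shown with the signal in capitals.
Hist1h1c: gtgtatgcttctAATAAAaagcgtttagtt
Hist3h2a: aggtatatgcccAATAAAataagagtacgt
Hist2h2be: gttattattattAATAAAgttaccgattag
These signals lie at chr13:23740342-23740347, chr11:58956797-58956802 and chr3:96223717-96223722, all on the plus strand and in the 3′ UTR. The Hist2h2be transcript (an H2B gene) is 2620 bases long and does not hold the motif as spelled.

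The clustered counts followed these transcript forms. Transcripts that run past the motif held between 49.3% and 61.6% of the clustered counts of a library. Those that end near it held 7.40% in Tsc2+/+ MEFs, 6.60% in the library labelled Tsc2-/-, 0.955% and 0.772% in untreated and rapamycin-treated MKOC cells, and 0.895% and 1.59% in untreated and rapamycin-treated TJ cells. The remainder came from transcripts without the motif (11.0% to 28.7%) and from 23 transcripts whose deposited length differs from M21, whose sequence was not read (15.6% to 28.0%). Transcripts of at least 1000 bases, 15 of the 75 clustered ones, held 67.6% to 79.6% of the clustered counts. All these shares are of counts with no correction for length, so they are not shares of mRNA molecules. The libraries do not show how much clustered histone mRNA without a tail the cells held.

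**Figure D1:**
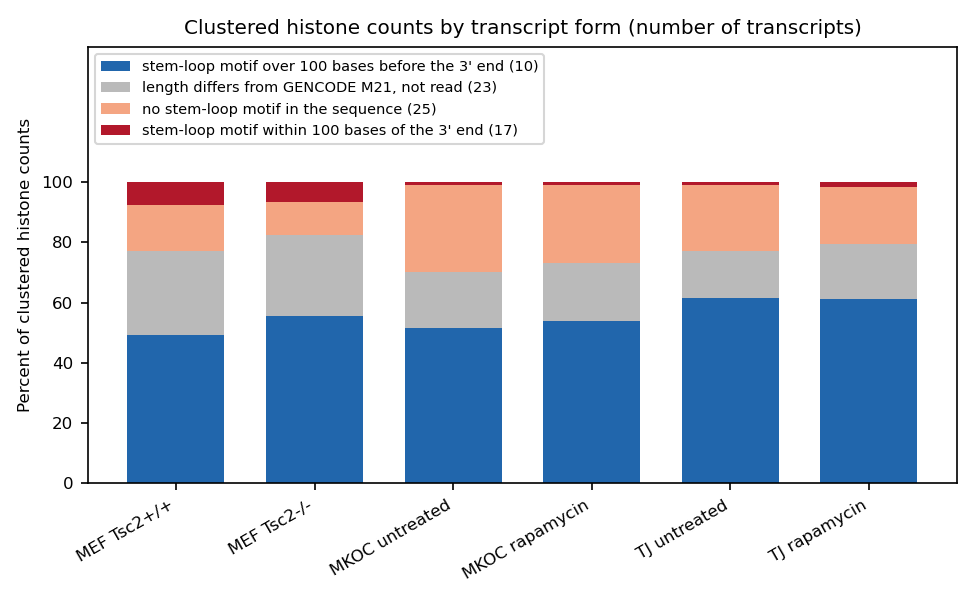
Percent of clustered histone counts, not corrected for length (y axis), by form of the transcript they were assigned to, in each of the 6 libraries (x axis), with the number of transcripts of each form in brackets. The form with the stem-loop motif over 100 bases before the end is the largest in every library, at 49.3% to 61.6%, and the form that ends near the motif is the smallest, at 0.772% to 7.40%.

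Libraries held 22887020 to 37505004 estimated counts, and CPM (counts scaled to library size) and TPM (the same, corrected for transcript length) were computed per gene. Tsc2 RNA was present in all of them, at 22.6 TPM for Tsc2+/+ MEFs against 10.5 TPM for the library labelled Tsc2-/-, at 49.1 and 44.0 TPM in untreated MKOC and TJ cells and at 19.5 and 19.1 TPM with rapamycin, and Trp53 RNA was present in both MEF libraries (26.3 and 28.5 TPM) although both are labelled p53-/-. Fibroblast markers over 1 TPM numbered 8 and 9 of 10 in the MEF libraries and 3 or 4 in the kidney libraries, with Thy1 at 0 and Lum at 0.135 TPM in Tsc2+/+ MEFs. Their sum, most of it Vim in the kidney libraries, was 6653 and 4232 TPM in the MEF libraries, 4735 TPM in untreated and 7612 TPM in treated MKOC cells, and 3630 TPM in untreated and 5321 TPM in treated TJ cells. In each kidney library 7 of 13 markers of kidney epithelium were over 1 TPM (1 and 3 in the MEF libraries), with Cdh1, Krt8, Cdh16, Pax2 and Pax8 among them and Epcam, Slc12a1, Slc12a3 and Aqp2 at 0 to 0.179 TPM. The kidney markers summed to 1454 TPM in untreated and 2102 TPM in treated MKOC cells, and to 1652 and 2466 TPM in TJ cells. All 5 mesothelial markers were over 1 TPM in the library labelled Tsc2-/- (397 TPM in sum) against 2.66 TPM in sum in Tsc2+/+ MEFs. In the kidney libraries 1 of the 5 (Msln) was over 1 TPM, at 79.9 TPM in untreated and 150.4 TPM in treated MKOC cells and at 69.5 and 97.6 TPM in TJ cells. Macrophage and endothelial markers summed to at most 34.8 and 3.71 TPM in any library. Their part in the histone values was not tested.

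In this poly(A) RNA, which holds clustered histone mRNA mainly where it has a tail, replacement histone counts exceeded clustered histone counts in every library. The 69 clustered genes summed to 24.3 CPM in Tsc2+/+ MEFs and 16.3 CPM in the library labelled Tsc2-/-. They summed to 32.1 and 34.1 CPM in untreated and rapamycin-treated MKOC cells and to 29.1 and 45.2 CPM in untreated and rapamycin-treated TJ cells. The 17 replacement genes summed to between 1174 and 1389 CPM, so their counts were 30.7 to 72.0 times the clustered counts. Per length, the clustered genes summed to 29.5 to 62.1 TPM and the replacement genes to 1458 to 1953 TPM. The ratio of clustered to replacement counts was lowest in the library labelled Tsc2-/- (1.39%, 95% log-ratio interval 1.26% to 1.54%) and highest in TJ cells with rapamycin (3.26%, interval 3.08% to 3.45%). This order depended on the transcripts and genes counted. With transcripts under 1000 bases alone the lowest ratio was that of Tsc2+/+ MEFs (1.77%, against 2.06% in the library labelled Tsc2-/-), and without the most abundant member of each class the highest was that of MKOC cells with rapamycin (2.90%, against 2.80% in TJ cells with rapamycin). These intervals cover counting error only. In bulk libraries fewer cells in S phase and less histone mRNA per cell cannot be told apart.

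**Figure D2:**
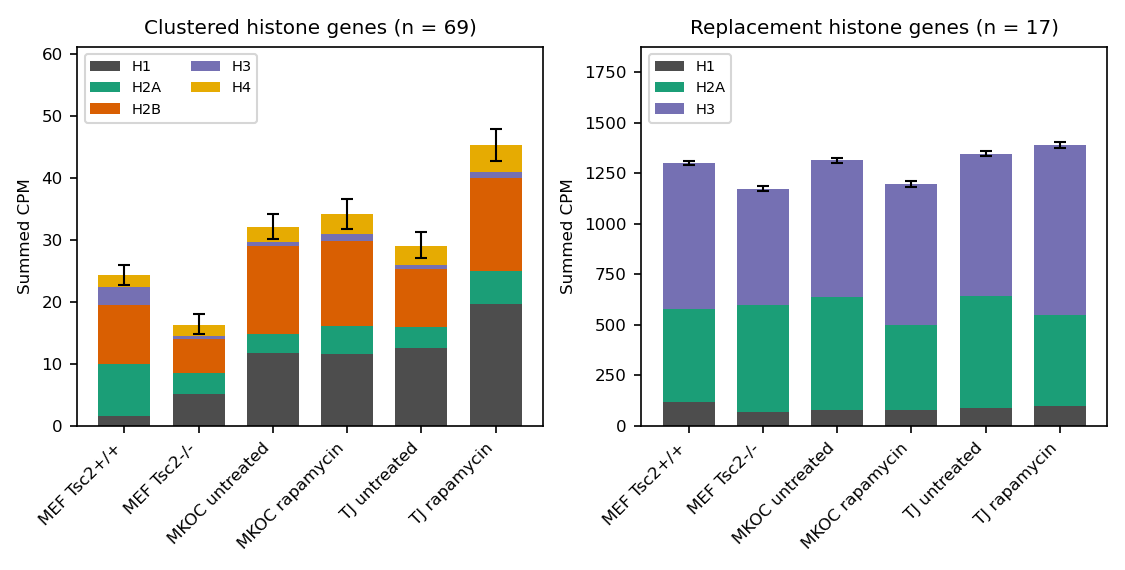
Summed CPM (y axes, different scales) of the 69 clustered and the 17 replacement histone genes in each library (x axis), stacked by histone type, with 95% Wilson counting intervals on the totals. The clustered sums run from 16.3 to 45.2 CPM and the replacement sums from 1174 to 1389 CPM.

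Within the clustered genes, H1 and H2B made up most of the kidney libraries. H1 genes had 1.63 CPM in Tsc2+/+ MEFs and 5.11 CPM in the library labelled Tsc2-/-, against 11.5 to 19.6 CPM in the kidney libraries. H2A genes had 8.40 CPM in Tsc2+/+ MEFs and 3.03 to 5.36 CPM elsewhere, and H3 genes had 2.89 CPM in Tsc2+/+ MEFs and 0.586 to 1.18 CPM elsewhere. H2B genes ranged from 5.40 to 15.1 CPM, and H4 genes from 1.79 to 4.31 CPM. Tsc2+/+ MEFs therefore had the highest clustered H2A and H3 and the lowest clustered H1 of the 6 libraries. A replacement gene of type H2B or H4 is not among the members.

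Few clustered genes carried these sums. Of the 69, 43 had at most 3 counts in every library, 8 of them with 0 in all, and 59 stayed under 1 CPM in all libraries. Hist1h1c, Hist2h2be, Hist3h2a, Hist1h2bc (an H2B gene) and Hist1h4i together took 86.5% to 91.7% of the clustered counts in the kidney libraries, 74.2% in the library labelled Tsc2-/- and 48.7% in Tsc2+/+ MEFs. Among the 17 replacement genes, 10 reached 1 CPM in a library and 7 had at most 3 counts in every library. Clustered genes are near copies of each other, and of the 52 clustered transcripts read, 37 shared at least 50% of their 31-base words with another gene, against 8 of 38 replacement transcripts. Values of single clustered genes therefore depend on how Kallisto divided shared reads. For 3 of the abundant ones the shared part was 2.82% (Hist2h2be), 11.4% (Hist1h1c) and 32.1% (Hist3h2a). That of Hist1h2bc and Hist1h4i is not given here.

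Per length, H3f3a, H2afz and H3f3b were the 3 most abundant members in every library. H3f3a, which with H3f3b encodes H3.3, was at 514 TPM for Tsc2+/+ MEFs, at 527 TPM for the library labelled Tsc2-/-, at 617 and 590 TPM in untreated and treated MKOC cells, and 630 and 771 TPM in untreated and treated TJ cells. H3f3b had 273 to 421 TPM. H2afz, which with H2afv encodes H2A.Z, a variant found at promoters, had 413 to 653 TPM. H2afy (macroH2A1, known from the inactive X chromosome) had 50.01 to 144 TPM, H2afv 47.7 to 107 TPM, H1f0 (the linker histone H1.0) 50.1 to 69.3 TPM and H2afx 13.1 to 25.8 TPM. The ranges of H2afy, H2afv and H1f0 overlapped, as did those of H3f3a and H2afz and those of H2afz and H3f3b. Of the clustered genes, Hist1h1c (1.04 to 20.6 TPM) and Hist1h2bc (2.18 to 17.2 TPM) were the most abundant in 5 libraries, and Hist3h2a (4.50 TPM) was in Tsc2+/+ MEFs. All 3 stayed under H2afx in each library.

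Some members were seen almost only in the MEFs. H2afy2 (macroH2A2) had 10.3 CPM in Tsc2+/+ MEFs and 16.2 CPM in the library labelled Tsc2-/-, against 0.103 to 0.232 CPM in the 4 kidney libraries. The lower MEF value was 44.3 times the highest kidney value. H1fx (the linker histone H1.10) had 0.937 and 1.55 CPM in the MEF libraries and 1 count over all 4 kidney libraries together. Hist1h2bk, an H2B gene that shares 75.3% of its words with other genes, had 0.755 and 0.575 CPM in the MEF libraries and 0 counts in each kidney library, which makes the lower MEF value at least 4.37-fold higher than the floor of 3 counts in any kidney library. Tsc2+/+ MEFs held most of the counts under the symbol Hist2h2bb (an H2B gene), with 39 counts against 6 in the library labelled Tsc2-/- and 0 to 3 in the kidney libraries. In M21 the transcripts under this symbol belong to Hist2h2bb and to Gm42743, and the counts are summed over both. The MEF and kidney lines were not compared by a test, since cell type and line cannot be told apart.

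**Figure D3:**
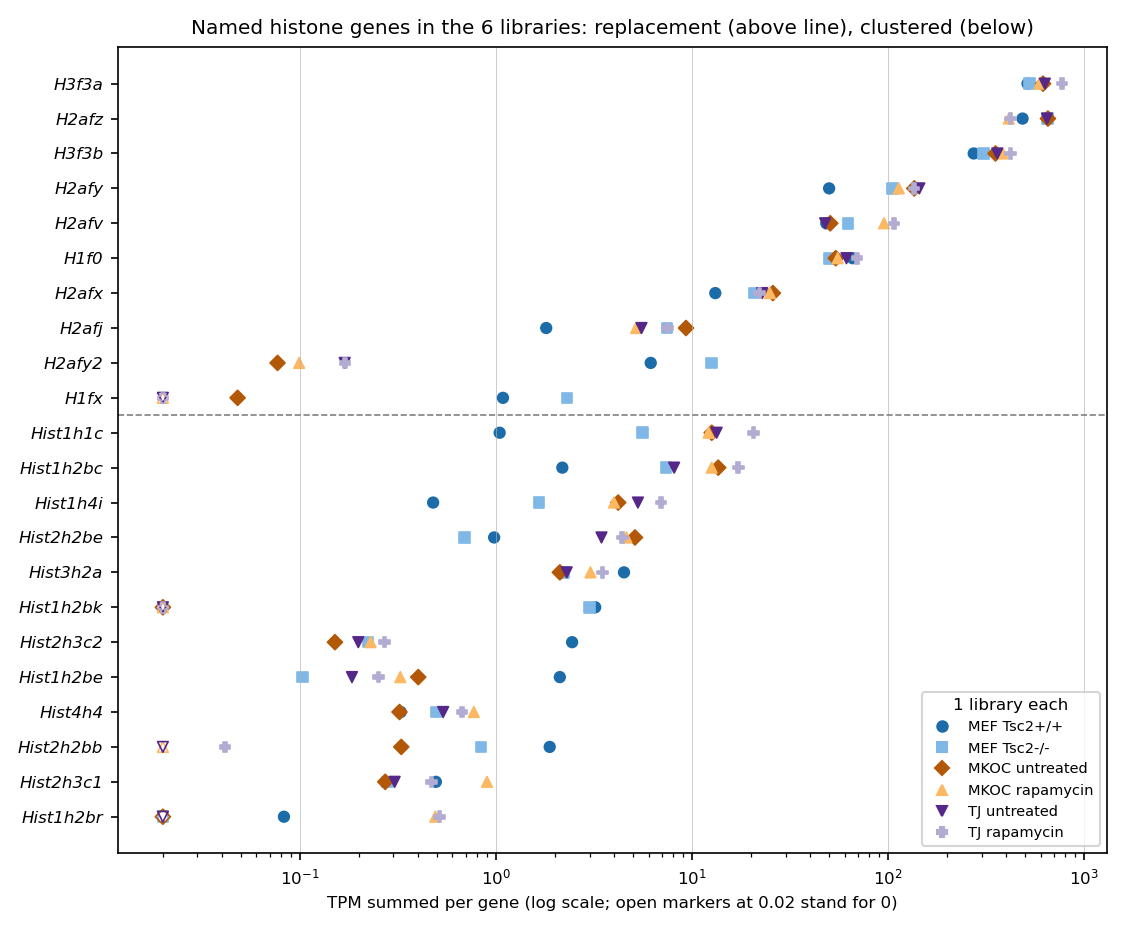
TPM summed per gene (x axis, log scale, with open markers at 0.02 for values of 0) for the 22 named histone genes (y axis), with 1 marker for each library. Replacement genes are above the dashed line and reach 771 TPM for H3f3a, clustered genes are below it and reach 20.6 TPM for Hist1h1c, and H2afy2, H1fx and Hist1h2bk are split between the MEF and the kidney libraries.

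Rapamycin was compared in the kidney lines, which answers whether histone mRNA changed with the drug in cells labelled Tsc2-null. The sum of the clustered genes was higher with rapamycin in TJ cells, at 45.2 against 29.1 CPM, a log2 difference of 0.64 (counting interval 0.51 to 0.77), and differed by 0.09 (interval -0.05 to 0.23) in MKOC cells. The replacement sum differed by -0.13 (interval -0.15 to -0.11) in MKOC cells and by 0.04 (interval 0.02 to 0.06) in TJ cells. These sums are in CPM. With the TMM library sizes used for single genes, a setting chosen after seeing the data, the clustered sum differed by 0.60 in TJ and 0.053 in MKOC cells, and the replacement sum by -0.17 in MKOC cells and by 0.0032 (interval -0.018 to 0.024) in TJ cells. The direction of the replacement sum also turned with the transcripts counted, to 0.039 in MKOC cells with transcripts under 1000 bases and to -0.059 in TJ cells with longer ones, and it was -0.036 in TJ cells without the most abundant member. Each of these differences is between 1 library and another and has no replicate check. For single genes, edgeR's quasi-likelihood test was fitted over the 4 kidney libraries with the line as a covariate, so the 2 lines are the replicates, and p-values measure only the spread between these libraries. Of the 86 members, 17 had enough counts to be tested, which were 9 clustered and 8 replacement genes. At an adjusted p under 0.05, 2 were higher (H2afv and Hist1h2br) and 1 was lower (H2afz), against 17.5% of all 12952 genes tested called higher and 17.4% called lower. In either direction 34.9% of all genes were called. Hist1h2br and Hist2h3c1 reached the filter on low counts in the treated libraries alone, so their direction was fixed by the filter. With the filter reached in both arms, a setting chosen after seeing the data, 15 members were tested, of which H2afv was higher and H2afz lower, against 16.8% and 15.9% of 12752 genes.

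The genes of H2A.Z were called in opposite directions. H2afz had 383 CPM in untreated and 248 CPM in treated MKOC cells, and 379 CPM in untreated and 251 CPM in treated TJ cells. Its level with rapamycin was 63.7% of the untreated level, a log2 change of -0.65 (SE 0.10, edgeR adjusted p = 0.000766), with -0.67 in MKOC and -0.64 in TJ cells. H2afv had 19.9 CPM in untreated and 40.6 CPM in treated MKOC cells, and 18.7 CPM in untreated and 45.4 CPM in treated TJ cells. It rose 2.17-fold, a log2 change of 1.12 (SE 0.12, edgeR adjusted p = 0.000148), with 0.99 in MKOC and 1.24 in TJ cells. The treated libraries lay below the untreated ones for H2afz and above them for H2afv, with no overlap. The share of all genes that separate in this way was not counted. The calls stood under all 7 alternatives tried, with adjusted p-values up to 0.0278 for H2afz and 0.0191 for H2afv.

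As a share of the H2A.Z counts (H2afz plus H2afv), H2afv was 6.997% in Tsc2+/+ MEFs and 6.18% in the library labelled Tsc2-/-. It was 4.94% (95% Wilson interval 4.57% to 5.34%) in untreated and 14.1% (13.3% to 14.9%) in treated MKOC cells. It was 4.69% (4.31% to 5.11%) in untreated and 15.3% (14.5% to 16.1%) in treated TJ cells. The sum of both genes was 403 and 398 CPM in untreated MKOC and TJ cells and 288 and 296 CPM with rapamycin, so the rise of H2afv was smaller in counts than the fall of H2afz. H2afz lies at chr3:137864487-137866922 on the plus strand and H2afv at chr11:6427229-6444443 on the minus strand.

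**Figure D4:**
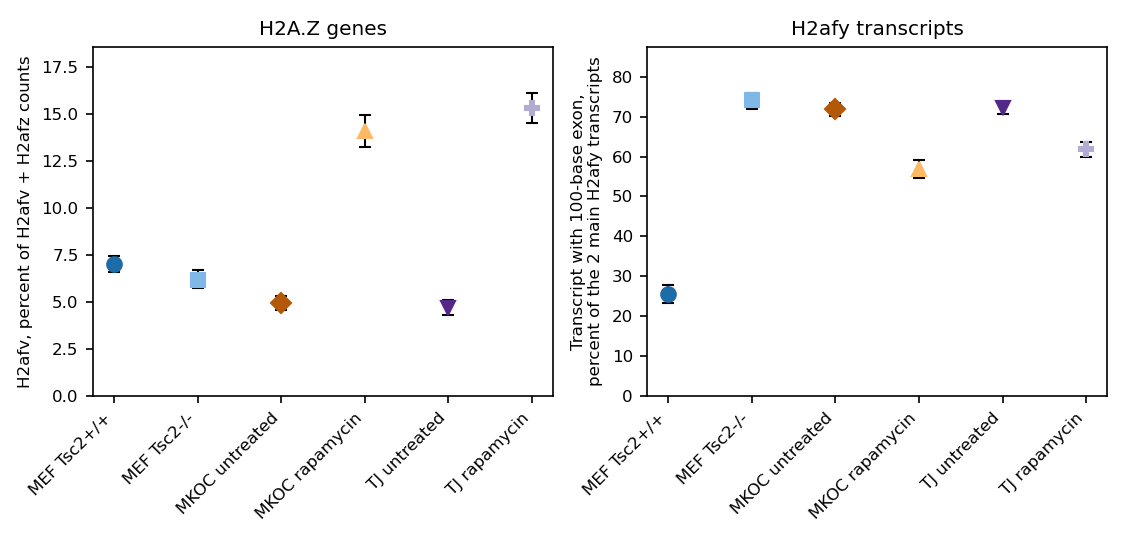
Left, H2afv as a percent of H2afv plus H2afz counts, and right, the H2afy transcript with the 100-base exon as a percent of the 2 main H2afy transcripts (y axes), in each library (x axis), with 95% Wilson counting intervals. H2afv is at 14.1% and 15.3% in the rapamycin libraries and at 4.69% to 6.997% in the other 4, and the H2afy transcript is at 25.5% in Tsc2+/+ MEFs and at 56.9% to 74.1% elsewhere.

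The other replacement genes tested were not called. H2afy had a log2 change of -0.23 (SE 0.10, edgeR adjusted p = 0.0997), with -0.32 in MKOC and -0.15 in TJ cells. H3f3b, H1f0 and H2afx had log2 changes of 0.12, 0.10 and -0.06. H2afj, an H2A variant, had 10.3 CPM in untreated and 5.83 CPM in treated MKOC cells, but 6.10 CPM in untreated and 8.48 CPM in treated TJ cells. Its log2 change was -0.85 (counting interval -1.15 to -0.56) in MKOC and 0.44 (interval 0.14 to 0.73) in TJ cells. H3f3a also differed in sign between the lines, with -0.067 (interval -0.11 to -0.02) in MKOC and 0.27 (interval 0.23 to 0.32) in TJ cells. In CPM, a scale added after seeing the data, its changes were -0.031 (interval -0.078 to 0.015), which includes 0, and 0.31 (interval 0.27 to 0.36). The difference between the lines was not tested, since each line has 1 library per arm.

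H2afy was also read at the level of transcripts, a choice made after its values were seen. The 2 main transcripts, which held 76.4% to 81.2% of H2afy counts, differ by an internal coding exon in position 6 of 9. In M21 their first exons (chr13:56135346-56135631 and chr13:56135346-56135530) and the ends of their last exons differ too. Counts were of whole transcripts, so their balance is not that of the coding exons alone. The coding exons that differ are shown because the balance between the 2 transcripts differed among libraries.
ENSMUST00000016081: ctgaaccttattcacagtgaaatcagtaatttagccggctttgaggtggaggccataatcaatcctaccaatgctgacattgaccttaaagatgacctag
ENSMUST00000045788: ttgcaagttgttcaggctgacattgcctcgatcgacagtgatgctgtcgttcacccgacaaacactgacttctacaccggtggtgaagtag
The first exon has 100 bases, at chr13:56089758-56089857, and the second has 91 bases, at chr13:56088252-56088342, both on the minus strand. The transcript with the 100-base exon had 392 of the counts of the pair in Tsc2+/+ MEFs, which was 25.5% (95% Wilson interval 23.4% to 27.7%), and 1348 in the library labelled Tsc2-/-, which was 74.1% (72.0% to 76.1%). In MKOC cells it was 71.9% (70.2% to 73.4%) untreated and 56.9% (54.7% to 59.2%) with rapamycin. In TJ cells it was 72.2% (70.6% to 73.8%) untreated and 61.9% (60.0% to 63.7%) with rapamycin. The share thus was lower with rapamycin in both lines and lowest in Tsc2+/+ MEFs. The intervals cover counting error only, and Kallisto's division of reads between these transcripts, which share their other coding exons and of which the second has a deposited length that differs from M21, is a further error that the files do not give.

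Of the 9 clustered genes tested, the 7 that reached the filter in both arms had log2 changes from -0.04 to 0.77, and 0 of them were called. Within TJ cells their changes ran from 0.31 to 1.08, and within MKOC cells from -0.33 to 1.25, where 5 of the 7 were negative. Hist1h2br, an H2B gene, had 0 counts in both untreated libraries, 14.2 counts in treated MKOC and 15.2 counts in treated TJ cells. Against a floor of 3 counts per untreated library this is at least 6.23-fold higher in MKOC and at least 5.15-fold higher in TJ cells. It entered the edgeR test through its treated libraries alone, so its adjusted p of 0.00120 is not independent of the filter. The transcripts of Hist1h2br that held counts share 89.4% and 99.8% of their 31-base words with other genes. Its near copy Hist1h2bq had 4.12 counts in untreated and 0 counts in treated MKOC cells, and 10.3 counts in untreated and 2 counts in treated TJ cells. Summed, the pair had 4.12 and 14.2 counts in MKOC and 10.3 and 17.2 counts in TJ cells, and the sum was not called (log2 change 1.31, edgeR adjusted p = 0.0716).

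The other 8 clustered genes tested were not called, with log2 changes from -0.04 to 1.20 and edgeR adjusted p-values from 0.0716 to 0.965. Hist1h1c had 11.6 CPM in untreated and 11.4 CPM in treated MKOC cells, and 12.3 CPM in untreated and 19.5 CPM in treated TJ cells. Hist1h2bc had 5.03 and 4.77 CPM in untreated and treated MKOC cells and 3.01 and 6.52 CPM in untreated and treated TJ cells. These 2 genes were higher with rapamycin in TJ cells, with log2 changes of 0.62 and 1.08, and at -0.06 and -0.11 in MKOC cells, with counting intervals that include 0 there. Hist3h2a had 2.79 and 4.08 CPM in MKOC and 3.03 and 4.72 CPM in TJ cells, with log2 changes of 0.51 and 0.60 and an edgeR adjusted p of 0.107. Hist2h3c1, an H3 gene all of whose words are shared with other genes, had 8.97 and 23.0 counts in MKOC and 9 and 13.9 counts in TJ cells, and it too entered the test through the treated libraries alone. Its log2 change of 1.20 (SE 0.47) had an edgeR adjusted p of 0.0716. Hist4h4, Hist1h4i, Hist2h2be and Hist1h2be had log2 changes of 0.77, 0.16, 0.09 and -0.04.

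**Figure D5:**
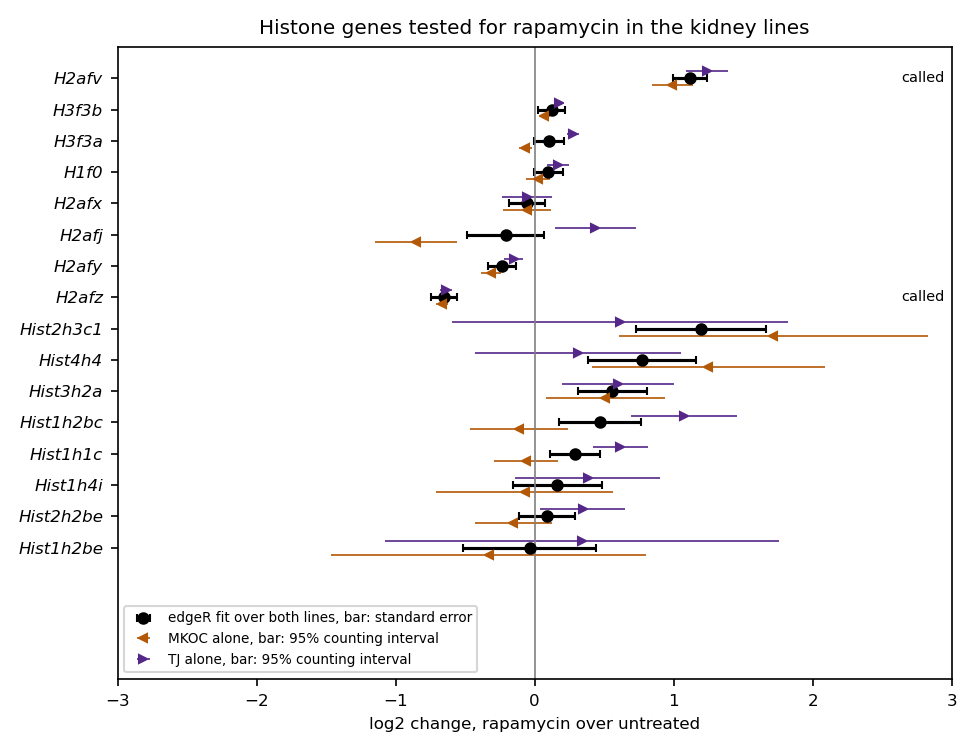
Log2 change with rapamycin (x axis) of 16 of the 17 histone genes tested (y axis, replacement genes at the top), with the edgeR fit over both lines and its standard error in black and each line alone with its 95% counting interval in colour. Hist1h2br is not drawn, since it had 0 counts in both untreated libraries. H2afv at 1.12 and H2afz at -0.65 are the called genes, and H2afj and H3f3a lie on opposite sides of 0 in the 2 lines, H3f3a in MKOC cells with an interval that includes 0 in CPM.

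The genes that make and handle histones did not move in 1 direction with rapamycin, and their counts stand against the same 17.5% of all genes called higher and 17.4% called lower. Slbp did not pass the test, with 103 and 104 TPM in untreated and treated MKOC cells, 95.8 and 98.3 TPM in TJ cells, a log2 change of 0.00 and an edgeR adjusted p of 0.979. Of 20 genes of histone mRNA processing and transcription tested, 1 rose (Zcchc6, a terminal uridylyl transferase, 0.34) and 5 fell, among them Ncbp1 (cap binding, -0.72) and Cstf2 (3′ end cleavage, -0.66), and the median was -0.04, against 0.02 for all genes tested. Of 21 histone chaperones and variant loaders, 4 rose and 8 fell with a median of -0.25. Those that rose most were Srcap (the motor of a complex that loads H2A.Z, 0.51) and Hjurp (the loader of the centromere H3 variant, 0.39). Those that fell most were Chaf1b (a subunit of the CAF-1 assembly factor, -0.61) and Ssrp1 (a subunit of FACT, -0.47). Of 21 genes of S phase and proliferation, 0 rose and 9 fell with a median of -0.24, and Tyms (thymidylate synthase) and Rrm2 (ribonucleotide reductase) fell most, both by 0.59 on the log2 scale. The part of S phase in the histone values was not tested.

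The MEF comparison sets the library labelled Tsc2-/- against that of Tsc2+/+ cells, with 1 library each and no test. Fold changes were taken from TPM with 1 added, which understates those of low genes. Over 7377 genes with at least 10 TPM in both, the median log2 ratio was 0.39 in TPM and 0.02 in CPM, so TPM values of the library labelled Tsc2-/- are shifted upward as a whole. Of 19 members with at least 1 TPM in a MEF library, 4 were at least 2-fold higher in the library labelled Tsc2-/- and 2 at least 2-fold lower, against 25.2% and 5.18% of all 12771 such genes. After TPM was scaled to a median ratio of 1 the split was 3 higher and 3 lower, and in CPM with 1 added it was 2 and 3. The shares of all genes on these 2 scales were not counted. The median log2 difference was -0.07 for the clustered and 0.53 for the replacement members, against 0.45 for all genes.

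The members with the largest positive differences were Hist1h1c, H2afj and Hist1h2bc. Hist1h1c was at 1.04 TPM for Tsc2+/+ MEFs against 5.57 TPM for the library labelled Tsc2-/- (log2 1.68), and 1.20 against 4.98 CPM. H2afj had 1.80 against 7.46 TPM (log2 1.59) and 2.49 against 7.95 CPM, and Hist1h2bc had 2.18 against 7.35 TPM (log2 1.39) and 0.993 against 2.64 CPM. H2afy, the other member past 2-fold, had 50.01 against 105 TPM (log2 1.06) and 53.9 against 93.8 CPM. In CPM all 4 had counting intervals of the ratio above 1.

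The members with the largest negative differences were Hist1h2be (an H2B gene), Hist2h3c2 (an H3 gene) and Hist3h2a. Hist1h2be had 147 counts in Tsc2+/+ MEFs and 3.06 counts in the library labelled Tsc2-/-, a log2 CPM ratio of -4.94 (counting interval -6.57 to -3.31) and a log2 difference of -1.50 in TPM with 1 added. Hist2h3c2 had 63.6 and 2.88 counts, a log2 CPM ratio of -3.82 (interval -5.52 to -2.12) and the same -1.50 in TPM with 1 added. Hist3h2a had 7.42 and 2.81 CPM, a log2 ratio of -1.40 (interval -1.79 to -1.02), and -0.78 in TPM with 1 added. H3f3a and H3f3b had log2 differences of 0.04 and 0.16 in TPM with 1 added and of -0.36 and -0.30 in CPM, so their direction depends on the scale.

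The summed clustered genes were lower in the library labelled Tsc2-/- by a log2 difference of -0.57 in CPM (counting interval -0.75 to -0.40), but by -0.080 in TPM. Without transcripts of 1000 bases or more the difference was 0.092. In the same library 13 of 21 genes of S phase and proliferation were at least 2-fold higher in TPM with 1 added, with a median log2 difference of 1.26, and 0 were 2-fold lower. That scale is shifted upward in this library, and the genes past 2-fold were not counted in CPM. Slbp was at 29.3 TPM for Tsc2+/+ MEFs against 85.5 TPM for the library labelled Tsc2-/-. Of 20 genes of histone mRNA processing, Slbp included, 3 were at least 2-fold higher in TPM with 1 added, as were 3 of 21 chaperones, against 25.2% of all genes. The difference from that share was not tested. The part of S phase in the clustered sum was not tested. The gap between the length and the effective length of a transcript, which Kallisto sets from the fragment length, had a median of 198 bases in Tsc2+/+ MEFs over transcripts longer than 3000 bases, against 181 to 186 bases in the other libraries, and the part of fragment length in the clustered sums was not tested.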

How the data were processed

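The libraries were made from poly(A) RNA with a stranded kit and sequenced as paired-end reads of 100 bases. The authors trimmed the reads with Trimmomatic and ran Kallisto (version not given in the sources used here), and deposited estimated counts, TPM, and lengths and effective lengths in bases for 88198 transcripts. The paper names a human reference, whereas the deposited identifiers are those of Ensembl mouse transcripts. The deposited ratio, the authors' fold change of the MEF comparison, was used only for its gene symbols. Estimated counts and TPM were summed per symbol. Counts with no symbol (0.372% to 0.468% of a library) were left out, and 8 transcripts with 2 symbols took the first.

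Counts were rounded, filtered with filterByExpr, scaled by TMM and tested with edgeR 4.0.16 over the 4 kidney libraries with the line as covariate and Benjamini-Hochberg adjustment over 12952 genes (threshold 0.05). The line is the replicate block, and its pairing comes from the labels. Deviations of a line's libraries had a correlation of 0.56. Changes of single genes within a line used TMM library sizes, and those of summed genes used CPM. MEF values are log2(TPM + 1). Intervals are 95% Wilson or log-ratio intervals and, like the floor of 3 counts, cover counting error only. Sequences and positions are from GENCODE M21 (GRCm38), which holds 86031 of the transcripts. Genes named are replacement genes with at least 1 CPM in a library, the 12 clustered genes with the highest mean CPM, the 5 largest rapamycin calls in each direction, the 3 largest MEF differences in each direction, Slbp, the 2 largest calls of each list in each direction, and genes whose sequence is printed. Members and lists were chosen with earlier results of these data known, and the shares within H2A.Z and H2afy were chosen after their values were seen. Of the 21 symbols listed for histone mRNA processing, Ars2 had no row. The alternatives were upper-quartile scaling, no filter, no replicate block, DESeq2 1.42.0, limma 3.58.1 on log2(TPM + 1), other pseudocounts, CPM, length cuts and leaving out each line. Scripts were tested on simulated data, in Python 3.11.15 and R 4.3.3. Human libraries were not analysed here.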

Additional observations from a re-analysis of the deposited data

Results flagged for a closer look

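H2afj and H3f3a moved in opposite directions with rapamycin in the 2 kidney lines, beyond the counting intervals with TMM library sizes. The log2 change of H2afj was -0.85 in MKOC and 0.44 in TJ cells, and that of H3f3a was -0.067 in MKOC and 0.27 in TJ cells. In CPM, a scale added after seeing the data, H3f3a changed by -0.031 in MKOC cells with a counting interval of -0.078 to 0.015, which includes 0. Each line has 1 library per arm, so the difference between the lines was not tested.

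Of the 4 symbols ending in -ps that the histone genes exclude, H3f3a-ps1 and H3f3a-ps2 held counts, with highest values of 0.112 CPM in untreated TJ cells and 0.424 CPM in MKOC cells with rapamycin.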

How the results depend on the processing

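Of the rapamycin calls, H2afv and H2afz were called by every tool and setting run. The count of histone genes called higher was 2, but 1 with DESeq2 and 1 with limma, neither of which gave Hist1h2br an adjusted p, and 1 when Hist1h2bq and Hist1h2br were summed or when the filter had to be reached in both arms, settings chosen after seeing the data. It was 3 without the filter on low counts, which adds Hist2h2aa1, and 2 with no replicate block, where 1 was called lower, so leaving out the block changed no other call of a histone gene. Over all genes, 2267 were called higher and 2259 lower. Those called higher numbered 1391 with DESeq2, 1709 with limma, 2267 with the pair summed, 2136 with the filter reached in both arms and 2593 without the filter. With no replicate block 559 of all 12952 genes were called higher and 716 lower. With the setting that left out a line the remaining one has no test, and the log2 change ranged from 0.99 to 1.24 for H2afv and from -0.67 to -0.64 for H2afz. In the MEFs, members at least 2-fold higher numbered 7 with 0.1 added to TPM, 1 with 5 added and 2 in CPM, and those lower numbered 0 with 5 added. The shares of all genes under these MEF settings were not counted. H3f3a and H3f3b turned to -0.36 and -0.30 in CPM and to -0.35 and -0.23 with TPM scaled to a median ratio of 1.

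Summed clustered genes in the MEFs differed by -0.080 in TPM, -1.03 without the most abundant member, -0.81 with transcripts of at least 1000 bases and 0.092 with shorter ones. With shorter ones the rapamycin difference was -0.052 in MKOC and 0.84 in TJ cells. Summed replacement genes differed in the MEFs by 0.26 in TPM, -0.082 without the most abundant member and -0.12 with shorter transcripts, in MKOC cells by -0.18 in TPM, -0.25 without the most abundant member, -0.19 (at least 1000 bases) and 0.039 (shorter), and in TJ cells by -0.036 without the most abundant member, -0.059 with longer and 0.33 with shorter transcripts. With TMM library sizes, a setting chosen after seeing the data, the replacement sums differed by -0.17 in MKOC and 0.0032 in TJ cells. The cause was not tested.

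The ratio of clustered to replacement histone was, in Tsc2+/+ MEFs, 2.13% in TPM, 2.60% without the most abundant member of each class and 1.77% with shorter transcripts. In the library labelled Tsc2-/- it was 1.69% in TPM, 1.20% with longer and 2.06% with shorter transcripts, so with shorter transcripts Tsc2+/+ MEFs had the lowest ratio. In MKOC cells it was 2.20% untreated without the most abundant member, and with rapamycin 2.60% in TPM, 3.06% with longer and 2.25% with shorter transcripts. In TJ cells it was, untreated, 1.997% in TPM, 1.77% without the most abundant member and 1.88% with shorter transcripts, and with rapamycin 2.80% without the most abundant member, 3.49% with longer and 2.67% with shorter ones. The 43 clustered genes with at most 3 counts in every library were too low to compare, and the reason for their low counts was not tested.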
